A study of Mus musculus with 8 samples.

Results

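The coding Hox genes of the mouse were followed across 8 arrays of mouse embryonic fibroblasts. The mouse has 39 coding genes named Hoxa, Hoxb, Hoxc or Hoxd with a number, and all 39 had a probe on the array, found through the RefSeq identifier that the scanner files give for each probe. They had 41 probes among 37266 probes measured, and 39 of the 19047 coding genes with a named probe. Where a gene had several probes, the one with the highest mean log2 signal stood for it, which concerned Hoxa10 and Hoxb3. The cells are fibroblasts grown from embryos that carry both copies of Atm (Atm+/+) or from Atm-/- littermates, and Atm encodes a kinase that answers breaks in both DNA strands. Each genotype was sampled untreated (0 h) and 4, 8 or 24 h into treatment with the DNA-breaking drug neocarzinostatin (NCS). A single array stands for each genotype and time, and cells of every group were kept in 15% fetal calf serum. The number of embryos or lines behind the arrays and the deleted part of Atm are not given in the labels, which name no Cre or transgene.

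Hox genes encode transcription factors that bind DNA through a homeodomain and give cells of the embryo their place along the head-to-tail axis and along the limb. They lie in 4 clusters, Hoxa on chromosome 6, Hoxb on 11, Hoxc on 15 and Hoxd on 2, with 11, 10, 9 and 9 genes, and genes of the same number in different clusters are paralogs. Genes of low number are used toward the head, genes of high number toward the tail and the far end of the limb, and fibroblasts keep much of this pattern in culture. Hox proteins bind DNA together with TALE partners of the Pbx and Meis families, retinoic acid sets the head-side limit of several of them, and Polycomb and Trithorax complexes keep them off or on.

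A level below is a log2 intensity minus the array's 75th percentile, and a probe's level is compared only with its own level on other arrays. Differences carry their standard error (SE), and a gene was called at an adjusted p under 0.05 (limma, Benjamini-Hochberg over all kept probes). Time and genotype are both in the model, so the p-values rest on how far the gap between the genotypes varies from time to time. That spread holds no replicate cultures. It may be largely technical, and it can also hold a response that differs between the genotypes. Between 57.0% and 61.1% of the spots of an array were well above background. The 4 Atm+/+ arrays shared a slide and the 4 Atm-/- arrays shared a different slide, so genotype cannot be told apart from slide. Time followed the position on the slide and no untreated array was taken after 0 h, so the response to NCS cannot be told apart from time in culture. The Atm+/+ 24 h array had 1560 spots marked as outliers by the scanner software against 49 to 210 on the others. Hoxa3, Hoxa5, Hoxb2 and Hoxb3 have no value there. The Atm probe differed by -1.24 ± 0.18 between Atm-/- and Atm+/+ (limma adjusted p = 0.0137) and was well above background on 4 of 4 arrays of each genotype. A probe outside the deleted part checks nothing. The Y-linked genes Ddx3y, Eif2s3y, Uty and Kdm5d were well above background on 4 of 4 Atm+/+ and 0 of 4 Atm-/- arrays, and Xist on 1 of 4 and 4 of 4. The labels do not give the sex of the cells. By these genes the Atm+/+ cells read as male and the Atm-/- cells as female. Every genotype difference below therefore cannot be told apart from sex or from the embryos used, as well as from slide.

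The promoter windows of 4 genes named below are shown. Hoxb9, which was also called between genotypes, has no window in the reference used and is left out. Hoxb4 was called between genotypes, and Hoxd12 had the largest estimate after NCS, at 24 h, which was not called. The antisense RNA Hoxa11os was called between genotypes, and Hoxa11 is its coding partner on the opposite strand. Each window is RefSeq sequence of build GRCm38.p6, 300 bases from 250 before to 50 after the start of the transcript, written 5′ to 3′ on the strand of the gene. Capitals mark matches on either strand to any of 4 motifs. These are the CCAAT box (CCAAT), the core element of retinoic acid receptors and other nuclear receptors (AGGTCA), the TATA box (TATAAA) and a site for Pbx with a Hox protein (TGATNNAT).
Hoxb4 (chr11:96318017-96318316, + strand): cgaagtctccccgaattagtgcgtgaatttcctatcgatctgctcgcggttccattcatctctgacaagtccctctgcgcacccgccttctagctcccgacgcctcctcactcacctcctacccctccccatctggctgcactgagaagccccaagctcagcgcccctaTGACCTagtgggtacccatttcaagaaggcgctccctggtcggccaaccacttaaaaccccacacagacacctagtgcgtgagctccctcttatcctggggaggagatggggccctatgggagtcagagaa
Hoxd12 (chr2:74674763-74675062, + strand): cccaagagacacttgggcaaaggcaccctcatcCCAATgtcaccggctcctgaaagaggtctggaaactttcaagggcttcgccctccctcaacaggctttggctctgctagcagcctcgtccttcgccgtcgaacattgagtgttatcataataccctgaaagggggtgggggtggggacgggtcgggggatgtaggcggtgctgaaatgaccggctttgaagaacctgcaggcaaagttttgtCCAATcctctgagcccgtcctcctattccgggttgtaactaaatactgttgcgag
Hoxa11 (chr6:52245761-52246060, - strand): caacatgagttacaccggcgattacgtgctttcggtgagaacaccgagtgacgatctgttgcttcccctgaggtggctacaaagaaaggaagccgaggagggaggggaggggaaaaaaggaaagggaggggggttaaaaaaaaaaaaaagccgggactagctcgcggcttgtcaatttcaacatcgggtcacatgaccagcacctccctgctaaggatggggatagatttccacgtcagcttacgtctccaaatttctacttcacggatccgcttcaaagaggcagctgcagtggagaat
Hoxa11os (chr6:52244993-52245292, + strand): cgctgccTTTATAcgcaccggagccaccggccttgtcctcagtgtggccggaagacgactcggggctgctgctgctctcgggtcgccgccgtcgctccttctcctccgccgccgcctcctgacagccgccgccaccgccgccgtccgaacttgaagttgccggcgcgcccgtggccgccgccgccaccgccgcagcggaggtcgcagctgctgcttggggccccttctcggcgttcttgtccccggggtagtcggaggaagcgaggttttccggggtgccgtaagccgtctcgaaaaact
The Hoxb4 window holds the nuclear receptor element on its minus strand at bases 170 to 175. The Hoxd12 window holds the CCAAT box at bases 34 to 38 and 246 to 250, the second next to the start. The Hoxa11os window holds the TATA box on its minus strand at bases 8 to 13, and the Hoxa11 window holds no match. No matches overlap in these windows. Of 24 windows, for the 22 coding Hox genes that have one, 15 hold the CCAAT box (62.5%, against 37.4% of 32851 windows of all genes). The nuclear receptor element is in 7 (29.2% against 16.3%), and the TATA box and the Pbx-Hox site are in 4 each (16.7% against 13.6% and 8.85%). These counts describe letters and not binding.

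Most Hox genes were detected in the fibroblasts, and those of paralog groups 4 to 9 were detected on every array. A probe well above background on all 8 arrays was found for 30 of 39 Hox genes (76.9%), against 65.6% of all coding genes with a named probe. Hoxb1 and Hoxd1, at the head end of their clusters, and Hoxc11 were well above background on no array. All genes of groups 4, 5, 6, 7, 8 and 9, in every cluster, were well above background on all 8 arrays.

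**Figure D1:**
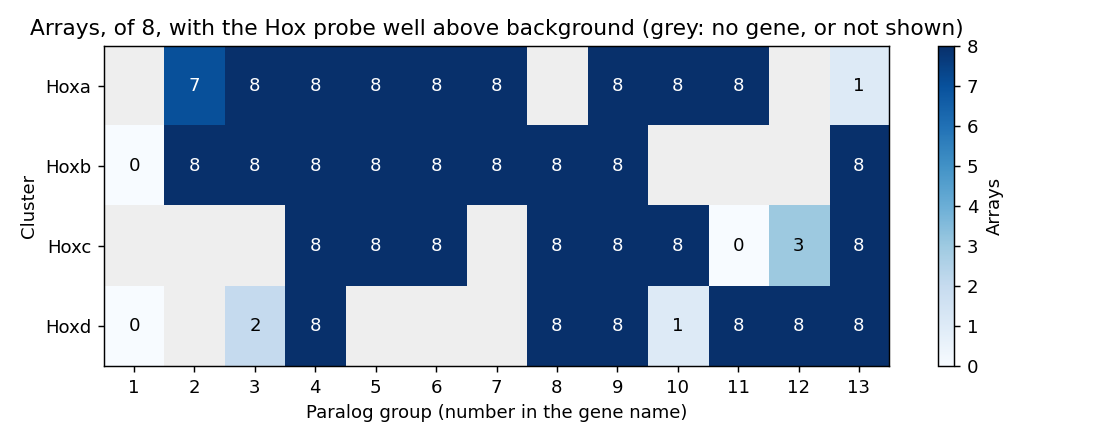
Each cell is a Hox gene (grey: no gene, or not shown), by cluster (rows) and paralog group (columns), and its number and shade give on how many of 8 arrays its probe was well above background. Hoxb1, Hoxd1 and Hoxc11 read 0, groups 4 to 9 read 8 throughout, and groups 10 to 13 are mixed.

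A set of 5 genes was detected on some arrays. Hoxa2, which patterns the hindbrain and the second pharyngeal arch, was well above background on 7 arrays, all but Atm-/- 8 h. Hoxc12 was so on 3 arrays, Atm+/+ at 4, 8 and 24 h, and Hoxd3 on 2, Atm-/- at 0 and 24 h. Hoxa13, a gene of the hand and foot plate, and Hoxd10, a gene of the hindlimb and lumbar region, were each seen on 1 array, Atm-/- 24 h. Among the genes of the tail end and the distal limb, Hoxa10, Hoxa11, Hoxb13, Hoxc10, Hoxc13, Hoxd11, Hoxd12 and Hoxd13 were well above background on all 8 arrays. With a minimum of 2 arrays, 33 Hox genes were kept for testing. Hoxa13, Hoxb1, Hoxc11, Hoxd1 and Hoxd10 were not kept.

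**Figure D2:**
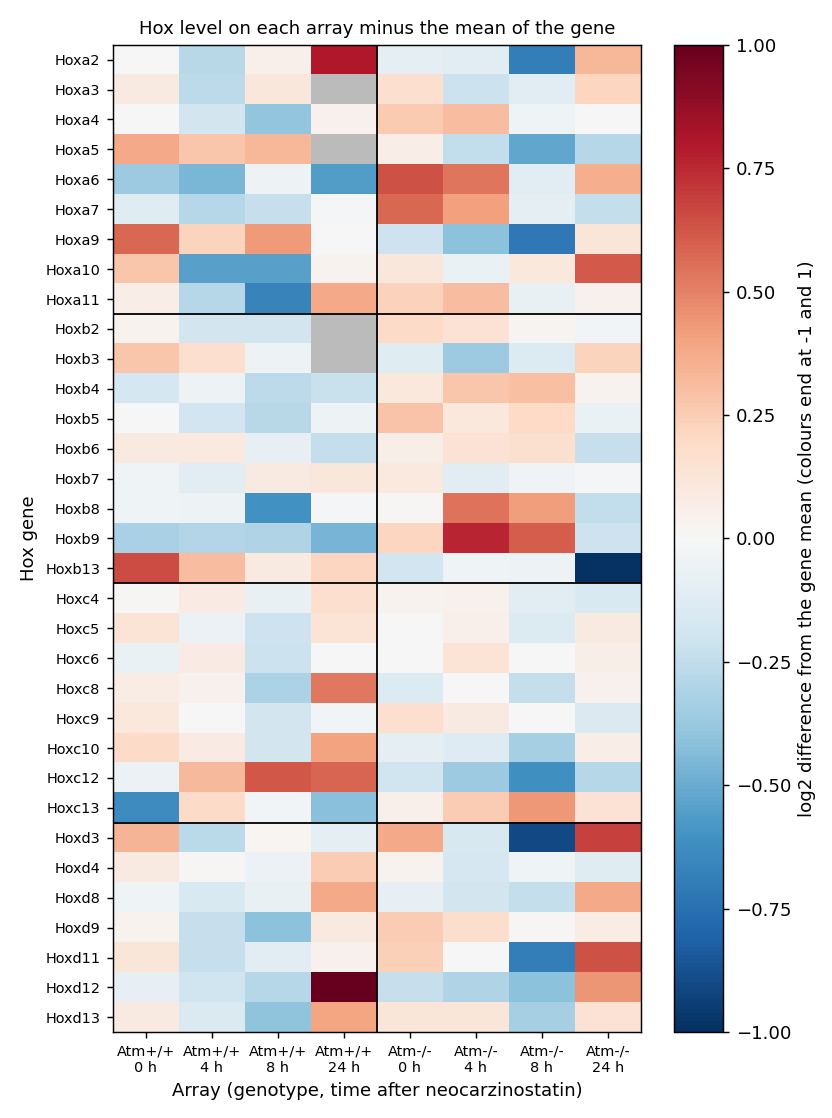
Each row is a kept Hox gene, by cluster and number, each column an array, and the colour is the log2 level minus the mean of that gene over the arrays (grey: no value). Hoxb9 and Hoxb4 are higher on each Atm-/- array than on any Atm+/+ array, Hoxb13 is lower there, and Hoxd12 is red on both 24 h arrays.

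The genotype comparison asks what differs between Atm-/- and Atm+/+ cells at all times together. Hoxb9 and Hoxb4, both in the Hoxb cluster, were higher in Atm-/-, and no Hox gene was called lower. Of 33 kept Hox genes 2 were called (6.06%), against 14.7% of 23299 probes, of which 7.29% were higher and 7.39% lower. The 3419 calls were 1698 higher and 1721 lower, against 1315 and 2068 with normexp background correction and 902 and 1377 with outlier spots removed before scaling. At an unadjusted p under 0.05 there were 10 (30.3%), against 31.9%. The median difference was 0.03 over the kept Hox genes and 0.01 over all kept probes. With outlier spots removed before scaling it was -0.02 over the Hox genes and -0.06 over all probes.

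Hoxb9, a gene of the thoracic region, read -1.43, -1.40, -1.40 and -1.56 in Atm+/+, in the order 0, 4, 8 and 24 h used throughout. Its Atm-/- values were -0.89, -0.34, -0.50 and -1.31. Every Atm-/- array was above every Atm+/+ array, the Atm+/+ arrays lay close together, and the Atm-/- arrays were highest at 4 and 8 h. The genotypes differed by 0.69 ± 0.15 (n = 4 arrays each, limma adjusted p = 0.0434 after Benjamini-Hochberg), and Hoxb9 was higher in 4 of 4 pairs of arrays. Hoxb4, a gene of the neck vertebrae and of blood stem cells, whose promoter window is printed above, read 1.30, 1.43, 1.22 and 1.26 in Atm+/+. In Atm-/- it read 1.58, 1.76, 1.78 and 1.51. The groups did not overlap, and the difference was 0.36 ± 0.08 (limma adjusted p = 0.0498), higher in 4 of 4 pairs. Both calls lie next to the threshold. Without the 0, 4 or 8 h arrays the adjusted p was 0.125, 0.146 and 0.145 for Hoxb9 and 0.149, 0.182 and 0.128 for Hoxb4. Without the 24 h arrays it was 0.0245 and 0.0543, and over every alternative it ran from 0.0203 to 0.146 and from 0.0207 to 0.242. The differences stayed above 0, from 0.57 to 0.84 for Hoxb9 and from 0.28 to 0.39 for Hoxb4.

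**Figure D3:**
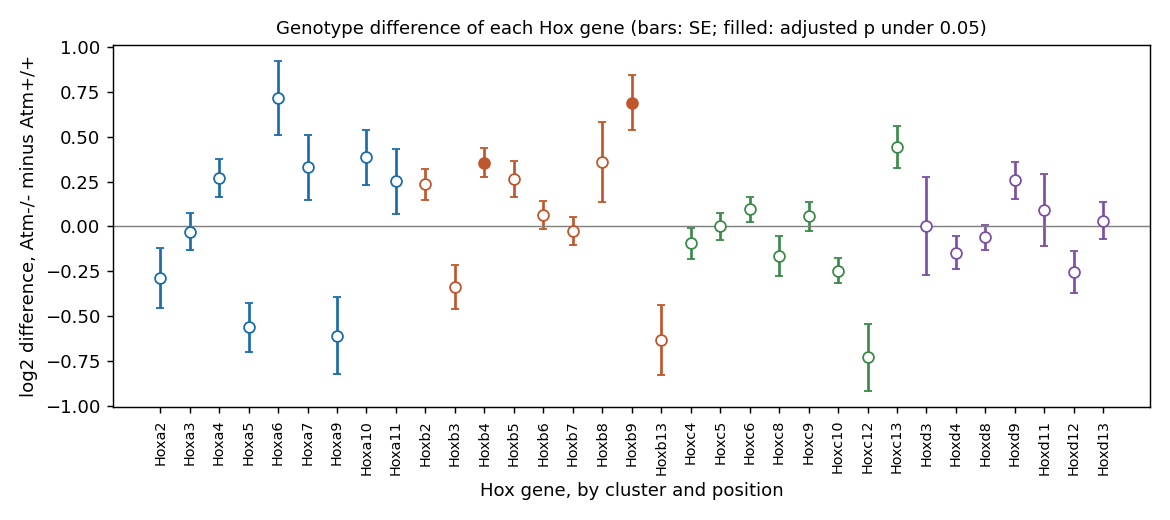
Points are the log2 difference of each kept Hox gene, Atm-/- minus Atm+/+, in cluster order and coloured by cluster, bars are SE, and filled points passed. Only Hoxb4 and Hoxb9 are filled, Hoxa6 is the highest at 0.71, and the Hoxd genes all lie within 0.5 of 0.

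Hoxa6 and Hoxc13 were the other genes with the largest positive differences, and neither passed. Hoxa6, a trunk gene, read -4.13, -4.22, -3.82 and -4.32 in Atm+/+ and -3.13, -3.23, -3.87 and -3.40 in Atm-/-. The arrays of the genotypes overlapped only at 8 h, and the difference was 0.71 ± 0.21 (limma adjusted p = 0.0821). Without the 8 h arrays it was 0.97 and passed. Hoxc13, a gene of hair, nail and tail, read -2.88, -2.07, -2.29 and -2.67 in Atm+/+ and -2.21, -2.004, -1.82 and -2.11 in Atm-/-. It was higher in 4 of 4 pairs, the groups overlapped, and the difference was 0.44 ± 0.12 (limma adjusted p = 0.0705).

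On the other side stood Hoxc12, Hoxb13 and Hoxa9, none of which passed under the settings given above. Hoxc12, a tail-end gene, read -6.02, -5.64, -5.34 and -5.38 in Atm+/+ and -6.15, -6.32, -6.57 and -6.24 in Atm-/-. It was well above background on 3 of 4 Atm+/+ arrays and 0 of 4 Atm-/- arrays, and the measured difference was -0.73 ± 0.19 (limma adjusted p = 0.0614). The call depended on the processing: the adjusted p was 0.0457 with quantile normalization, 0.0416 with array median scaling, 0.0125 with normexp and 0.0312 with no time term, and the highest over the alternatives was 0.181. Hoxb13, the last gene of its cluster and known from prostate and tail, read -3.29, -3.64, -3.85 and -3.73 in Atm+/+ and -4.13, -3.98, -3.99 and -4.94 in Atm-/-. Its groups did not overlap, and its difference was -0.63 ± 0.19 (limma adjusted p = 0.0945). Hoxa9, a gene of the trunk and of blood progenitors, read -3.51, -3.86, -3.66 and -4.09 in Atm+/+ and -4.29, -4.49, -4.80 and -3.96 in Atm-/-. It was lower at 0, 4 and 8 h and not at 24 h (-0.61 ± 0.21, limma adjusted p = 0.126), and without the 24 h arrays the difference was -0.85 and passed.

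Among the 29 Hox genes measured on every array, Hoxb4 and Hoxb9 lay above and Hoxb13 and Hoxc12 below with no overlap of the genotypes. The share was 6.90% in each direction, against 9.77% of probes above and 8.29% below. Higher in Atm-/- at 4 of 4 times were 4 of 29 (13.8%, against 20.6% of probes), Hoxb4, Hoxb9, Hoxc6 and Hoxc13. Lower at 4 of 4 times were 4 of 29 (13.8%, against 20.5%), Hoxb13, Hoxc10, Hoxc12 and Hoxd12. Hoxc12 passed the filter on dim probes through its Atm+/+ arrays alone, which favours a lower reading in Atm-/- in both kinds of count. The clusters were not uniform. In Hoxa, Hoxa5 read -0.56 (3 Atm+/+ arrays), its neighbours Hoxa6 and Hoxa7 read 0.71 and 0.33, and Hoxa9 read -0.61. The median was 0.25 in Hoxa, 0.23 in Hoxb, -0.05 in Hoxc and 0.00 in Hoxd. A difference of over 0.5 in size was read for 3 of 9, 2 of 9, 1 of 8 and 0 of 7 genes, against 17.6% of all kept probes.

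Noncoding RNA from the clusters was sought only by RefSeq symbols starting with Hox, Hot or Halr, not among other noncoding probes. The search gave Hoxa11os, which runs antisense to the limb gene Hoxa11. It read -2.02, -2.16, -2.28 and -1.73 in Atm+/+ and -1.72, -1.76, -1.995 and -1.47 in Atm-/-. The Atm-/- array was higher at each time, the groups overlapped, and the difference was 0.31 ± 0.07 (limma adjusted p = 0.0435). This call lies next to the threshold, as do those of Hoxb9 and Hoxb4. Hoxa11 itself read 0.87, 0.52, 0.14 and 1.19 in Atm+/+ and 1.04, 1.11, 0.73 and 0.85 in Atm-/-, a difference of 0.25 that did not pass.

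Over the 8 arrays, the genes whose pattern was most like that of Hoxb9, of 15000 probes with a gene name, were Gm13272 (Pearson r 0.981), Panx3 (0.977) and Rbms1 (0.972). Panx3 read -8.06, -8.07, -7.90 and -7.69 in Atm+/+ and -6.68, -4.77, -5.38 and -7.64 in Atm-/-. Except on the Atm-/- 4 and 8 h arrays, these values lie under the lowest level called well above background, so its r rests mostly on dim spots. Among Hox genes, Hoxb4 (0.916) and Hoxb8 (0.862) came nearest and Hoxa9 (-0.924) was the most opposed. These 8 arrays fall into the 2 genotypes, so the values describe a pattern that is partly that split.

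The partners and regulators of Hox genes were read from lists, whose counts stand against the 14.7% of all kept probes called between genotypes, 7.29% higher and 7.39% lower. Of the TALE partners, 8 of 9 were kept, 2 were called higher and 1 lower in Atm-/-, and the median was 0.12. Pbx3 was higher by 0.60 ± 0.10 and Pbx4 by 0.43 ± 0.07, and Meis3 was lower, at -0.57 ± 0.09 with 3 Atm+/+ arrays (limma adjusted p = 0.0206, 0.0213 and 0.0255). Meis1 was well above background on no array. Of 26 Polycomb and Trithorax genes, 1 was called, Kdm6a, an X-linked gene for a histone H3K27 demethylase, which was higher by 0.54 ± 0.08 (limma adjusted p = 0.0134). The median of this list was 0.00.

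Genes that make, carry and destroy retinoic acid differed in both directions, 3 higher and 3 lower of 16 kept with the Cdx factors, median 0.19. Of all kept probes, 7.29% were called higher and 7.39% lower. Aldh1a1, a gene for an enzyme that makes it, was higher by 1.42 ± 0.07, and Cyp26b1, for one that degrades it, by 1.13 ± 0.08. Crabp1, for a binding protein in the cytoplasm, had a difference of -1.39 ± 0.17, and Stra6, for the retinol uptake receptor, of -0.93 ± 0.07 (limma adjusted p from 0.00189 to 0.00947 for the 4 genes). Cyp26a1, Cyp26c1, Cdx2 and Cdx4 were well above background on no array. Of 34 other position factors 7 were higher and 7 lower, against the same shares of all kept probes, with a median of -0.04. Meox1, of the somites, read -1.92 ± 0.15, and En1, of ventral limb ectoderm and trunk dermis, -0.89 ± 0.09. Msx2, of limb and skull, read 0.92 ± 0.07, and the hindlimb factor Pitx1 0.86 ± 0.12 (limma adjusted p from 0.00325 to 0.0120 for the 4 genes). Of 15 genes beside the clusters, Snx10 was called, at -0.39 ± 0.09 (limma adjusted p = 0.0464), and the list's median was -0.09. Evx1 and Evx2, homeobox genes at the ends of Hoxa and Hoxd, were well above background on no array.

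Markers of cell types moved with the genotype as well. Their counts stand against 7.29% of all kept probes called higher and 7.39% called lower. Of 10 fibroblast markers, all were well above background on all 8 arrays, and 5 were lower in Atm-/- (median -0.48). All 6 kept macrophage markers were lower (median -1.27), with a log2 summed level of 4.49 to 5.34 in Atm+/+ and 3.38 to 3.90 in Atm-/-. Summed levels are over the markers with a value on every array, which leaves out Adgre1 (macrophage) and Des and Tnnt2 (muscle). Of 7 epithelial markers 6 were higher (median 0.92, summed level 1.02 to 1.80 and 1.84 to 2.79), and of 6 endothelial markers 3 (median 0.40, 0.21 to 0.96 and 1.35 to 2.47). Among the 6 epithelial markers, Epcam passed the filter on dim probes through its Atm-/- arrays alone, which favours a higher reading there. Its difference is also the epithelial median. Of 5 muscle markers 2 were higher and 1 lower (-2.37 to -1.77 and -2.52 to -1.94), and of 5 neural markers 1 and 2 (2.88 to 3.16 and 2.91 to 3.005). In RNA from whole cultures, fewer cells of a type and less RNA per cell cannot be told apart. The part of these cell types in the genotype values of Hox genes was not tested.

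The response to NCS asks what differs between treated arrays at 4, 8 and 24 h and the 0 h arrays, over both genotypes. No single Hox gene passed at any time. In the mean of all times 0 of 33 were called, against 0.207% of 23157 probes (limma, Benjamini-Hochberg), and 1 of 33 had an unadjusted p under 0.05, against 13.8% of probes. At 4 h the calls were 0, against 0.108% of probes, and 2 genes passed the unadjusted threshold, against 4.06%. At 8 h the calls were 0, against 0.259%, with 3 genes at the unadjusted threshold, against 11.7%. At 24 h the calls were 0, against 2.53%, with 4 genes at the unadjusted threshold, against 26.2%. The 3 times share the 0 h arrays, 1 per genotype.

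Although no gene passed, most Hox genes read lower at 8 h than at 0 h. The estimate was below 0 for 24 of 33 at 4 h and for 29 of 33 at 8 h, against 56.8% and 55.8% of all kept probes. The median was -0.10 at 4 h and -0.21 at 8 h, against -0.02 and -0.03 for all probes. At 24 h it was 0.01, against -0.07, but -0.00 with normexp or with the filter on all 8 arrays, and 0.18 with outlier spots removed, which moved the median of all probes to 0.12. All 9 Hoxa and all 7 Hoxd genes read below 0 at both 4 and 8 h, while 5 of 8 Hoxc genes and 4 of 9 Hoxb genes read above 0 at 4 h. Hoxd3 passed the filter on dim probes through Atm-/- 0 and 24 h alone, which favours a lower reading at 4 and 8 h. Under the scaling, filter and model alternatives 27 to 29 of 33 read below 0 at 8 h, and 27 of the 30 genes well above background on all 8 arrays. With 1 array left out at a time the 8 h count was 25 to 29, but the 4 h count was 15 of 33 without the Atm+/+ 4 h array (4 of 9 in Hoxa and 5 of 7 in Hoxd, median 0.01) and was 20 to 25 without any other. Without the Atm-/- 24 h array 29 Hox genes gave an estimate, of which 20 read below 0 at 4 h and 25 at 8 h. Without the Atm-/- 8 h array the Hoxa count at 8 h was 5 of 9. With normexp background correction Hoxa counted 8 of 9 at 4 h and 8 of 9 at 8 h. Hoxd counted 7 of 7 at both 4 and 8 h under each scaling tried. With the filter on all 8 arrays, which leaves out Hoxd3, it counted 6 of 6. Other lists read below 0 at 8 h as well, with a median of -0.34 over 8 TALE partners, -0.20 over 34 other position factors and -0.13 over 26 Polycomb and Trithorax genes, against 0.02 for retinoic acid and Cdx genes and 0.04 for genes beside the clusters. Macrophage markers had a median of 0.44 at 8 h and 0.73 at 24 h, and epithelial markers of -0.20 and -0.59. Of these lists' genes 0 were called over all times. The part of these cell types in the Hox values was not tested.

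**Figure D4:**
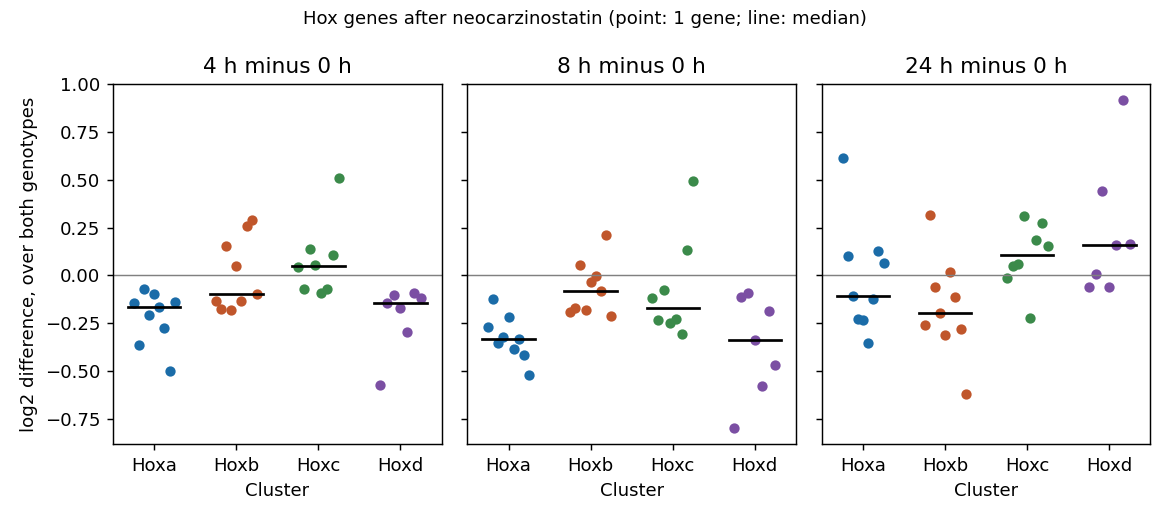
Points are the log2 differences of the kept Hox genes from 0 h, over both genotypes, at 4, 8 and 24 h, by cluster, and lines are medians. All Hoxa and Hoxd points are below 0 at 4 and 8 h, with medians at 8 h of -0.33 and -0.34, and at 24 h the Hoxd median is 0.16. The Hoxd points include Hoxd3, which was kept through its Atm-/- 0 and 24 h arrays alone.

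The same was counted within each genotype, array against array. A level at 4 h below that at 0 h in both genotypes was read for 20 of 33 Hox genes (60.6%, against 35.1% of probes), and at 8 h for 22 (66.7%, against 35.9%). Above 0 h in both genotypes were 6 at 4 h (18.2%, against 24.8%) and 2 at 8 h (6.06%, against 28.4%). By cluster, the 8 h count was 6 of 9 in Hoxa, 3 of 9 in Hoxb, 6 of 8 in Hoxc and 7 of 7 in Hoxd. The Hoxd count includes Hoxd3, for which the filter favours a lower reading at 8 h. From 8 to 24 h, 14 of 29 Hox genes read higher in both genotypes (48.3%, against 25.6%) and 3 lower (10.3%, against 33%). Those higher were 4 of 7 in Hoxa, 1 of 7 in Hoxb, 4 of 8 in Hoxc and 5 of 7 in Hoxd. Against 0 h, 9 of 29 read higher at 24 h in both genotypes (31.0%, against 26.5%) and 7 lower (24.1%, against 38.9%). The genes of a cluster share their arrays and are not replicates of one another.

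Hoxd13, the last gene of its cluster and the gene of the digits, shows the dip at 8 h. It read 1.38, 1.15, 0.89 and 1.69 in Atm+/+ and 1.42, 1.41, 0.96 and 1.44 in Atm-/-. In both genotypes the 8 h array was the lowest of the 4, and the estimate was -0.47 ± 0.15 (limma adjusted p = 0.348). Hoxd12, a neighbour of Hoxd13 with the same place in the limb, read highest at 24 h. It read -2.63, -2.74, -2.83 and -1.47 in Atm+/+ and -2.78, -2.85, -2.95 and -2.10 in Atm-/-. The 24 h array stood above the other 3 in each genotype, by 1.16 and 0.68 over 0 h. The estimate at 24 h was 0.92 ± 0.16 (limma adjusted p = 0.0584), which passed with normexp, with probes kept only where well above background on all 8 arrays, and with a trended variance prior. Hoxd8 read 0.44 ± 0.10 at 24 h (limma adjusted p = 0.0800), with 0.42 and 0.46 in the genotypes.

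**Figure D5:**
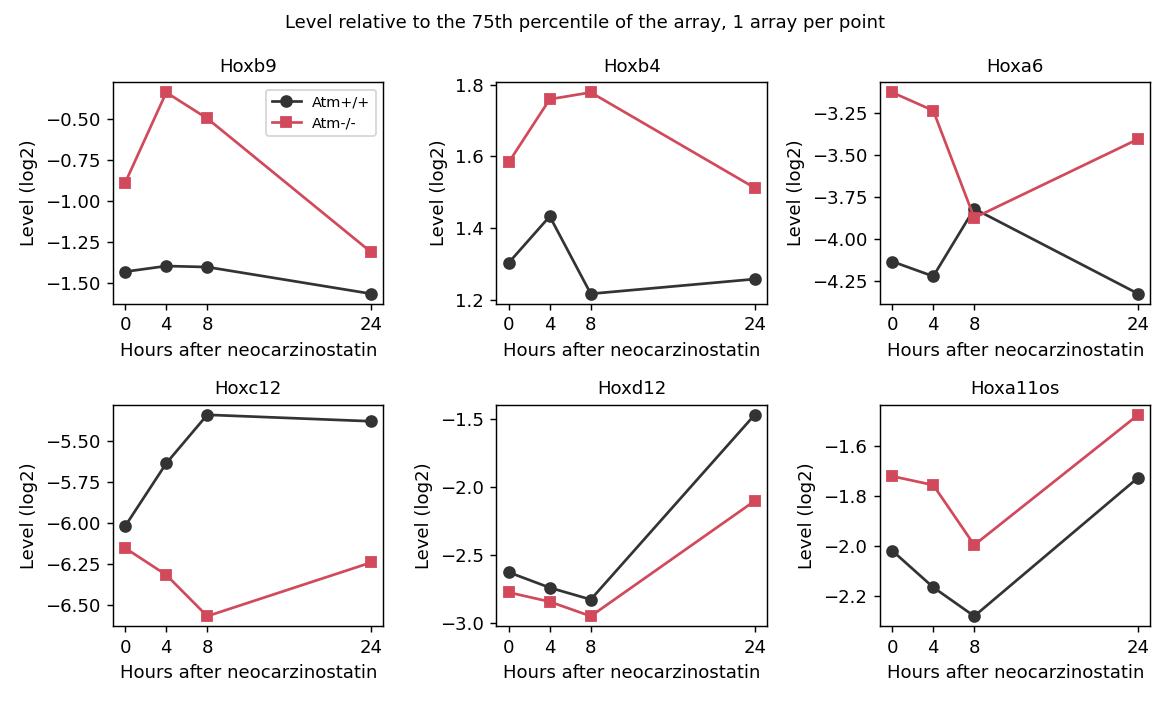
Each panel is a gene, with hours after NCS across and the log2 level (minus the array's 75th percentile) upward, on an axis of its own; circles are Atm+/+ and squares Atm-/-, 1 array per point. Hoxb9 and Hoxb4 show no overlap of the genotypes, Hoxa6 meets at 8 h, Hoxc12 parts after 0 h, and Hoxd12 is highest at 24 h in both.

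Over all times the largest positive estimates were those of Hoxc13 (0.39 ± 0.14, limma adjusted p = 0.339) and Hoxd12 (0.21). Hoxc13, whose levels are given above, read 0.82, 0.60 and 0.21 over 0 h in Atm+/+ and 0.21, 0.39 and 0.10 in Atm-/-. The largest negative estimates were those of Hoxd3 and Hoxb13. Hoxd3, a gene of the upper neck, read -6.02, -6.63, -6.34 and -6.46 in Atm+/+, where it was well above background on no array, and -5.99, -6.52, -7.26 and -5.67 in Atm-/-. Its estimate of -0.48 therefore rests mostly on dim spots. Hoxd3 was kept through its Atm-/- 0 and 24 h arrays alone, which favours a lower reading at 4 and 8 h. Hoxb13 read -0.31, and its lowest array was Atm-/- 24 h.

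The difference of response asks whether the mean change after 0 h differed between the genotypes. Of 23033 probes 0 were called (0% in limma, with 569 probes, 2.47%, at an unadjusted p under 0.05), and of 33 Hox genes 0 were called and 2 had an unadjusted p under 0.05. Hoxa10, a gene of the lumbar region, uterus and limb, read -0.40, -1.22, -1.22 and -0.64 in Atm+/+ and -0.56, -0.75, -0.57 and -0.07 in Atm-/-. Its levels at 4 and 8 h were well under 0 h in Atm+/+ and close to it in Atm-/-, a difference of 0.73 ± 0.20 (limma adjusted p = 0.99999). A second, dimmer Hoxa10 probe read -2.29, -3.01, -3.21 and -2.28 in Atm+/+ and -2.25, -2.84, -3.09 and -1.88 in Atm-/-, low at 4 and 8 h in both genotypes, so the probes of this gene disagree. Hoxc12 was the other, at -0.79 ± 0.29 (limma adjusted p = 0.99999), with levels above 0 h at all times in Atm+/+ and below 0 h in Atm-/-. Its Atm-/- spots and its Atm+/+ 0 h spot were dim. The model leaves 2 residual degrees of freedom.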

How the data were processed

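The deposited intensity values came from Feature Extraction 10.5.1.1, per the file headers: the authors' processed signal of each spot, background-subtracted and not normalized between arrays. The deposited tables of noncoding probes were not used here. Levels are log2 processed signal minus the 75th percentile of the array, spots of a probe averaged, with a value left out where every spot was marked an outlier. Probes well above background on at least 2 arrays were kept (23307 of 37266). Of 22838 RefSeq identifiers, 22212 matched a RefSeq symbol. The array follows mm9, so coordinates are given only for RefSeq windows. limma 3.58.1 (R 4.3.3) was fitted to all kept probes with time and genotype, tested on simulated data, two-sided, with Benjamini-Hochberg adjustment. The members and lists were chosen with earlier results of these data known. Genes named by rule were those called, the 3 largest genotype differences and 2 largest responses in each direction, the 3 probes most like the Hox gene of smallest genotype p, and up to 4 called genes per list; others were chosen after their values were seen. Alternatives were quantile or median scaling, outlier removal, normexp with offset 50 (on the median pixel signal, since the files hold no mean), other filters, a trended prior, probe means, no time term and leaving out arrays. The number of arrays limits the precision. A withheld item is not reported here.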

Additional observations from a re-analysis of the deposited data

Results flagged for a closer look

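There were 62 sets of 4 arrays, 1 per kept Hox gene and genotype where all 4 arrays gave a value. Of these, 4 held an array whose gap to its nearest neighbour took a larger share of the range than Dixon's critical value. For 4 replicates of 1 condition, chance puts about 1 in 20 sets past that value. Each set here is a time course, so a change with time can give such a gap too, and that share is no reference for it. Hoxb8 in Atm+/+ had a low 8 h array (-1.06, against -0.50 to -0.46, gap ratio 0.933). Hoxb13 in Atm-/- had a low 24 h array (-4.94, ratio 0.844). Hoxd12 in Atm+/+ had a high 24 h array (-1.47, ratio 0.852), the array with 1560 marked spots. Hoxd13 in Atm-/- had a low 8 h array (0.96, against 1.41 to 1.44, ratio 0.955).

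Hoxc12 read above 0 h at every time in Atm+/+, by 0.38, 0.68 and 0.64, and below it at every time in Atm-/-, by -0.16, -0.42 and -0.09. The tested difference of response was -0.791 (limma adjusted p = 0.99999) and did not pass. The Atm-/- spots and the Atm+/+ 0 h spot were dim. Hoxc12 passed the filter on dim probes through Atm+/+ 4, 8 and 24 h alone, which favours a rise from 0 h in Atm+/+. Such opposite directions were read for 1 of 31 Hox genes (3.23%) and for 904 of 22439 probes (4.03%).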

How the results depend on the processing

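The 2 Hox genes called between genotypes became 2 (Hoxb4 higher, Hoxc12 lower) with quantile normalization, 3 (Hoxa6 higher, Hoxa5 and Hoxc12 lower) with no time term, 3 (Hoxb4, Hoxb9, Hoxa5) with the filter on all 8 arrays, 1 (Hoxc12, lower) with array median scaling, 0 with outlier spots removed before scaling, 4 (Hoxb9 higher, Hoxa2, Hoxa5 and Hoxc12 lower) with normexp, 0 with no filter on dim probes and 4 (Hoxb4, Hoxb9, Hoxa5, Hoxc10) with a trended prior. With arrays left out they ranged from 0 to 4. The Hox genes reading below 0 h ranged from 15 to 25 at 4 h (24 otherwise; 15 without the Atm+/+ 4 h array) and from 25 to 29 at 8 h (29 otherwise), a count chosen after seeing the data. The 3419 probes called between genotypes became 2279 with outlier spots removed, 2126 with no filter and 2244 with no time term, and 1086 to 4216 with arrays left out. Leaving out 1 array of a time gives the same genotype value as leaving out both, because the model has a term for each time. The 48 probes called over all times after NCS became 22 with no filter, 104 with a trended prior and 0 to 42 with arrays left out. At 24 h, 1 Hox gene (Hoxd12) was called with normexp, with the filter on all 8 arrays and with a trended prior. Causes were not tested. No Hox gene was called over all times, at 4 h, at 8 h or in the difference of response under any alternative run, and of the named Hox differences recomputed 0 changed sign. Removing outlier spots first moved the median of all probes to 0.12 at 24 h (-0.07 otherwise) and to -0.11 in the difference of response (0.01 otherwise), and the Hox median to 0.18 at 24 h. No filter moved the genotype median of all probes to -0.10. The difference of response was not run without a 0 h array, because it needs that of each genotype. The labels give no replicate numbers, so arrays could be paired only by time. The genotype model does this with its term for each time, and the fit with no time term is the unmatched one.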
